A study of Mus musculus with 2 samples.

Results

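The microRNA genes described here lie at 4 imprinted genes of the mouse. They are Mir335 in Mest, Mir483 in Igf2, Mir675 in H19, and the pair Mir296 and Mir298 at Gnas. They were chosen by name, 5 of the 2202 microRNA genes counted. No cutoff on a measured value was used, but earlier results of these data were known when they were chosen. All 5 were found in the count tables. The samples were gastrocnemius, a calf muscle, from adult male mice of strain B6CASTF1/J aged 18 to 20 months. B6CASTF1/J mice are first-generation offspring of a C57BL/6J by CAST/EiJ cross. The labels name no treatment, no transgene and no second tissue, so there was 1 group with 2 libraries, biological replicates 2 and 1, prepared from inserts below 30 nt. The labels give separate biosamples but a single donor identifier for both, and nothing states that they came from separate animals, so p-values measure only the difference between these samples, which may be technical.

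An imprinted gene is transcribed mainly or only from the allele inherited from one parent. Mest, also called Peg1, and Igf2 are expressed from the paternal allele, and H19, a long non-coding RNA, from the maternal allele. Igf2 and H19 are neighbours that share an imprinting control region and enhancers, and in mouse muscle H19 stays expressed after birth while Igf2, a fetal growth factor, declines. Mir296 and Mir298 belong to the paternally expressed transcription of the Gnas region, which runs antisense to the Nesp transcript of Gnas. A microRNA is cut from a hairpin precursor, one or both arms of which give a mature strand of about the length of the inserts sequenced here, and the mature strand finds target messenger RNAs mainly through its seed, bases 2 to 8. The deposited counts do not separate the parental alleles, although the animals were hybrids, and they do not separate the arms of a hairpin. The messenger RNAs of the host genes were not part of the measurement.

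The mature sequences of both arms are shown because they are the known products of the genes counted. All 5 genes matched a RefSeq entry, build GRCm38.p6, and all 5 RefSeq hairpins were identical to the precursor annotated in GENCODE M21 on mm10. Sequences run 5′ to 3′ and capitals mark the seed.
miR-335-5p: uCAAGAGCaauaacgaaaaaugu
miR-335-3p: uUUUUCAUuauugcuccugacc
miR-483-5p: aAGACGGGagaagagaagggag
miR-483-3p: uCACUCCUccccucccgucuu
miR-298-5p: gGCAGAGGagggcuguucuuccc
miR-298-3p: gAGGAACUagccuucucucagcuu
miR-296-5p: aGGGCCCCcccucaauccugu
miR-296-3p: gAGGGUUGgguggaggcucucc
miR-675-5p: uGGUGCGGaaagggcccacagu
miR-675-3p: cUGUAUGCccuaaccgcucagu
The 10 mature strands carried 10 different seeds. Among the 1738 mature sequences of 1058 genes in the RefSeq table, no other gene had any of these seeds, so no seed family could be formed. Both miR-335 strands were poor in G and C, at 30.4% for the 5p strand and 36.4% for the 3p strand, whereas the other 8 ranged between 50.0% and 68.2%.

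The annotation placed the genes in different parts of their hosts. Mir335 (ENSMUSG00000065501.1) lies at chr6:30741299-30741396 on the plus strand, in an intron of Mest on the same strand. Mir483 (ENSMUSG00000070140.1) lies at chr7:142654924-142654996 on the minus strand, in an intron of Igf2 and of the overlapping gene model Gm49394. Mir675 (ENSMUSG00000076275.1) lies at chr7:142577064-142577147 on the minus strand, in an exon of H19, 77777 bases from Mir483. Mir298 (ENSMUSG00000065410.1), at chr2:174267504-174267585, and Mir296 (ENSMUSG00000065521.1), at chr2:174267047-174267125, both on the minus strand, are 379 bases apart. They overlap no other gene in GENCODE M21, and the antisense transcript Nespas on their strand was annotated 13652 bases from Mir298 and 14112 bases from Mir296. Coordinates are of the mm10 assembly. The only other microRNA gene of the table within 100 kb of these genes was Gm27591, 19052 bases from Mir296, which had no count in either library. Stretches of 20 bases in common with microRNA genes elsewhere in the genome were found for 1076 of the 2202 genes and for none of these 5.

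The hairpins of the intronic gene with the highest level and of the H19 gene are given because the strand and folding results below turn on them. Capitals here mark the mature strands, the 5p arm first.
Mir335: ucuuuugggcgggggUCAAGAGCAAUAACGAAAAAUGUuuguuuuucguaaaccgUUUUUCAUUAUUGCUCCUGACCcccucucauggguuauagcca
Mir675: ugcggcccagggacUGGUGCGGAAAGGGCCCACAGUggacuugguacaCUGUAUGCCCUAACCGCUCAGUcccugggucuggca
Mir335 has 98 bases and Mir675 has 84. In both, the mature strands sit on opposite sides of a stem whose loop separates the capitals.

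Assigned counts numbered 2156222 in replicate 2 and 4442692 in replicate 1, so replicate 1 was 2.06 times as deep. Of all reads in the tables, 19.8% were assigned in replicate 2 and 15.7% in replicate 1, while 70.2% in replicate 2 and 73.8% in replicate 1 mapped to several places and were left unassigned. Levels are CPM, counts on the gene's strand scaled to a common total of assigned counts. A single count was worth 0.464 CPM in replicate 2 and 0.225 CPM in replicate 1, and a count of 0 would have allowed up to 1.39 CPM in replicate 2 and 0.675 CPM in replicate 1, taking 3 counts as the limit. Reads were amplified by PCR, so all intervals cover counting error only. The 9 skeletal muscle microRNA genes checked, among them Mir206, Mir1a-1, Mir1a-2, Mir133b and Mir486, all had counts in both libraries, with a summed level of 65700 CPM in replicate 2 and 16413 CPM in replicate 1. The microRNA gene with the highest mean level was Mir378a, at 172860 ± 18207 CPM (SD, n = 2).

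The imprinted microRNA genes of these regions were present at low to moderate levels in aged gastrocnemius, and Mir335 stood well above the others. Together the 5 genes took 0.0532% of assigned counts in replicate 2 (Wilson 95% interval 0.0503 to 0.0564) and 0.0528% in replicate 1 (0.0507 to 0.0550). Their sum was therefore close in the libraries, and its makeup was less so. Mir335 made up 85.6% of it in replicate 2 and 76.3% in replicate 1, and Mir483 made up 11.1% in replicate 2 and 21.2% in replicate 1. At 2 CPM or more, 5 of the 5 were detected in replicate 2 and 4 in replicate 1. So 4 were detected in both, against 324 of all 2202 genes, or 14.7%. That background includes genes with copies, which are lowered because reads mapping to several places were left unassigned. A stretch of 20 bases was shared with another locus by 1076 of the 2202 genes and by none of the 5. In a bulk tissue, fewer cells of a type and less RNA per cell cannot be told apart in any of these levels.

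Mir335, known in human breast cancer cells for restraining metastasis, had 983 counts in replicate 2 and 1791 in replicate 1. This was 456 CPM in replicate 2 (Wilson 95% interval 428 to 485) and 403 CPM in replicate 1 (385 to 422), a mean of 430 ± 37.3 CPM (SD, n = 2). It took rank 79 of the 2202 genes by mean level, rank 74 in replicate 2 and rank 86 in replicate 1. Both libraries thus placed it in the upper part of the detected genes, and their intervals did not overlap.

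Mir483, whose 3p strand is known from human tumours with high IGF2, had 127 counts in replicate 2 and 498 in replicate 1. Its level was 58.9 CPM in replicate 2 (49.5 to 70.1) and 112 CPM in replicate 1 (103 to 122), a mean of 85.5 ± 37.6 CPM at rank 137. The library with fewer reads was the lower of the pair by a wide margin, and the intervals did not overlap.

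The Gnas pair lay near the lower end of what was detected. Mir298, known in mouse cells for repressing Bace1, had 18 counts in replicate 2 and 32 in replicate 1. Its level was 8.35 CPM in replicate 2 (5.28 to 13.2) and 7.20 CPM in replicate 1 (5.10 to 10.2), a mean of 7.78 ± 0.810 CPM at rank 267. Mir296, known from human endothelial cells for promoting the growth of vessels, had 12 counts in replicate 2 and 18 in replicate 1. This came to 5.57 CPM in replicate 2 (3.18 to 9.73) and 4.05 CPM in replicate 1 (2.56 to 6.40), a mean of 4.81 ± 1.07 CPM at rank 296. For both genes the intervals of the libraries overlapped. The ratio of Mir298 to Mir296 counts was 1.50 in replicate 2 (exact 95% interval 0.684 to 3.41) and 1.78 in replicate 1 (0.968 to 3.36), so at this depth the neighbours could not be told apart within a library.

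Mir675, whose strands promote the differentiation of mouse myoblasts, had 8 counts on its strand in replicate 2 and 7 in replicate 1. Its level was 3.71 CPM in replicate 2 (1.88 to 7.32) and 1.58 CPM in replicate 1 (0.763 to 3.25), a mean of 2.64 ± 1.51 CPM at rank 336. The intervals overlapped, and in replicate 1 the level on its strand was below the 2 CPM used for detection.

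**Figure D1:**
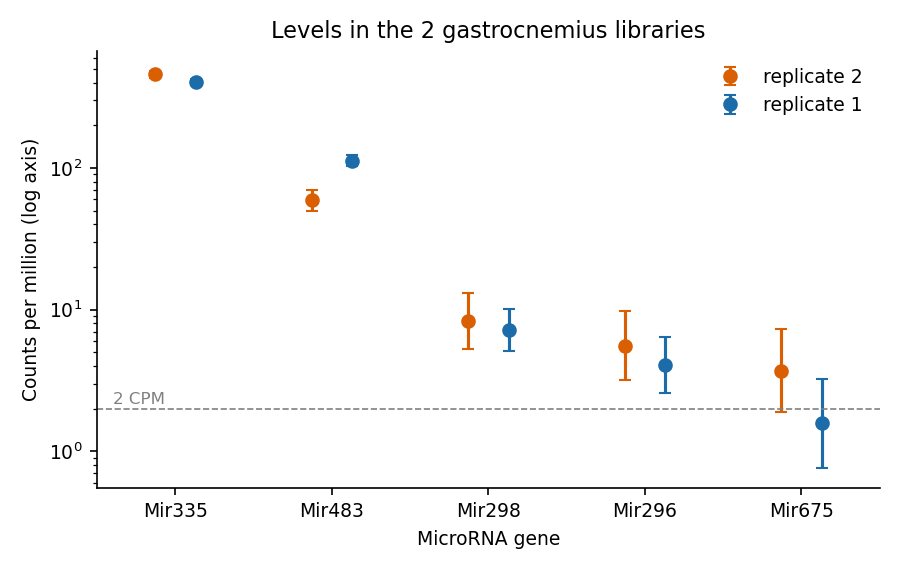
Levels of the 5 genes in CPM on a log axis, with replicate 2 left of replicate 1 for each gene. Points are the single libraries, bars are Wilson 95% intervals of the counts and the dashed line is the detection threshold of 2 CPM. Mir335 lies at 456 CPM in replicate 2 and 403 CPM in replicate 1, and only Mir675 in replicate 1, at 1.58 CPM, lies under the line.

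The order of levels was Mir335, Mir483, Mir298, Mir296 and Mir675, from high to low. Per 100 bases of precursor the mean levels were 438, 117, 9.48, 6.09 and 3.15 CPM in the same order, so precursor length did not change it. It did depend on counting by strand, since without strand Mir675 averaged 9.99 CPM, above Mir296 at 6.66 CPM and below Mir298 at 10.8 CPM. In replicate 1 Mir675 then had 33 counts and Mir298 had 32. The ranges of neighbours over the libraries did not overlap at any step. Counting error was nevertheless larger than the lower steps, since the exact interval of the ratio of Mir296 to Mir675 counts ran from 0.564 to 4.23 in replicate 2 and from 1.02 to 7.28 in replicate 1. The upper steps were wide in comparison. Mir335 had 7.74 times the counts of Mir483 in replicate 2 (6.43 to 9.39) and 3.60 times in replicate 1 (3.25 to 3.98), and these ratios within a library do not depend on any scaling between libraries.

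**Figure D2:**
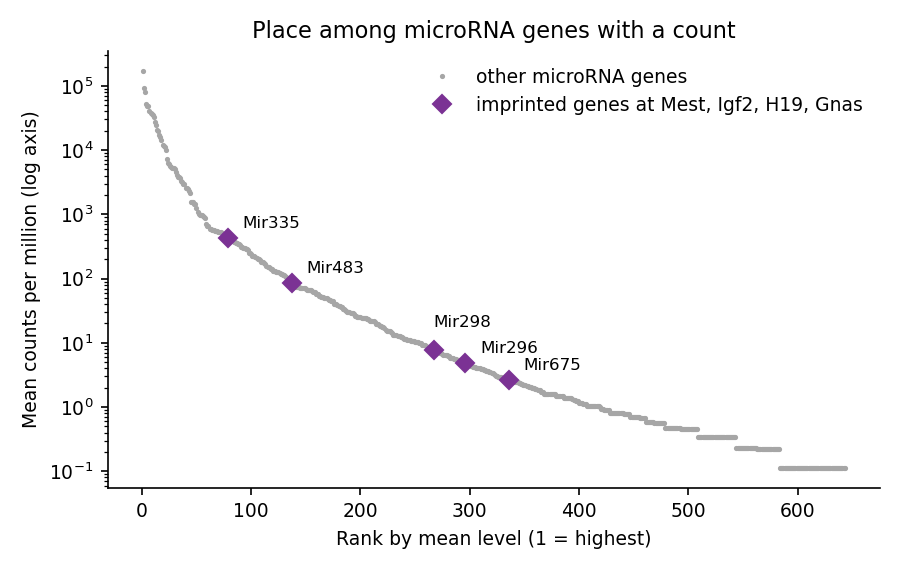
Mean CPM on a log axis against rank for the microRNA genes with a count in either library, with the 5 imprinted genes as diamonds. Mir335 and Mir483 lie at ranks 79 and 137, and Mir298, Mir296 and Mir675 lie at ranks 267, 296 and 336.

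Igf2 and H19 are neighbours with opposite imprinting, and their microRNA genes differed widely in level. Mir483 had 15.9 times the counts of Mir675 in replicate 2 (exact 95% interval 7.82 to 37.6) and 71.1 times in replicate 1 (34.3 to 178). The intervals of this ratio overlapped between the libraries. Without strand the ratio was 8.47 in replicate 2 (4.94 to 15.6) and 15.1 in replicate 1 (10.6 to 22.2), so its size rests on the strand counted. The counts are of reads in the precursor, which were not assigned to an arm, and the host transcripts were not measured.

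Setting replicate 2 against replicate 1 asks how far the levels varied between samples with identical labels. Log2 ratios of replicate 2 over replicate 1 were computed from CPM + 1 after edgeR's TMM scaling, and each gene's counts were compared by an exact binomial test, two-sided, at a threshold of 0.05 after Benjamini-Hochberg adjustment over all genes with 10 or more counts. This test compares these libraries, not conditions, and accounts for counting error only. All 5 genes had 10 or more counts and were tested. Mir335 was higher and Mir483 lower in replicate 2, and Mir298, Mir296 and Mir675 did not pass. That is 2 of 5, where 61.8% of the 380 genes tested were past the threshold. Among genes within 2-fold of the levels of Mir298, Mir296 and Mir675, 41.9%, 31.0% and 27.6% passed, and whether the 5 genes differ from the table in this was not tested. In each direction 1 gene passed, against 30.3% of all tested genes higher and 31.6% lower in replicate 2. The median log2 ratio of the 5 genes was 0.27, and over all tested genes it was 0.02.

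The intervals that follow are exact 95% intervals of the scaled count ratio, without the added 1 CPM. Mir483 had a log2 ratio of −0.82 (−1.13 to −0.55, adjusted p = 2.95e-09, exact binomial test), 0.565 times its level in replicate 1. It fell short of a 2-fold difference, which 28.7% of the tested genes showed together with an adjusted p under the threshold. For Mir335 the log2 ratio was 0.27 (0.16 to 0.38, adjusted p = 7.92e-06, exact binomial test), a factor of 1.21. This small difference was no longer past the threshold when the TMM factors were taken over all genes with a count, where the log2 ratio was 0.12 and the adjusted p = 0.0507 by the same exact test. Mir298 had a log2 ratio of 0.27 (−0.61 to 1.18, adjusted p = 0.543, exact test), and Mir296 one of 0.45 (−0.64 to 1.68, adjusted p = 0.417, exact test). Mir675 had a ratio of 0.94 (−0.33 to 3.02, adjusted p = 0.134, exact test). These last 3 intervals include differences of more than 2-fold, so the 50, 30 and 15 counts of these genes could not show whether the levels differed.

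**Figure D3:**
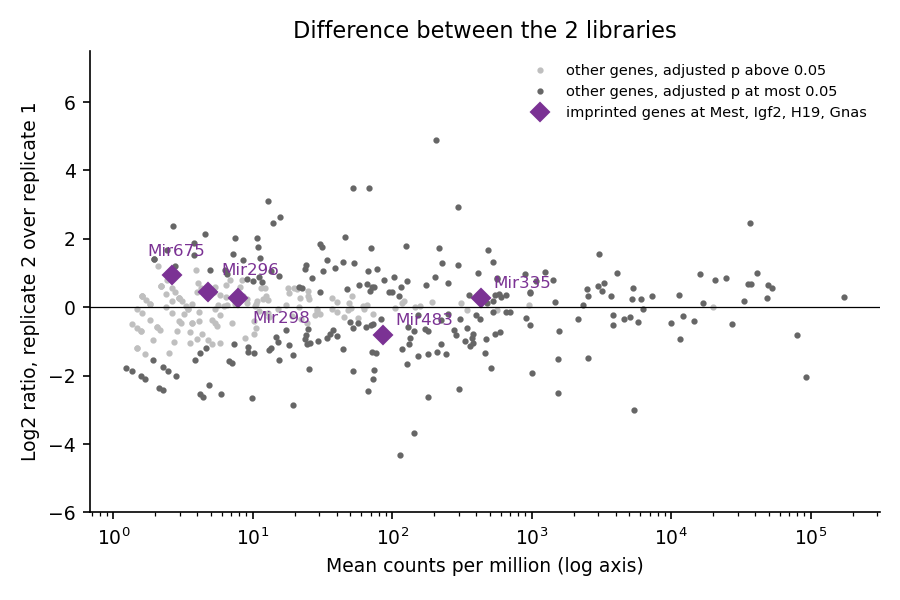
Log2 ratio of replicate 2 over replicate 1 against mean CPM (log axis) for the 380 genes tested, with dark points past an adjusted p of 0.05 and diamonds for the 5 imprinted genes. The diamonds lie between −0.82 (Mir483) and 0.94 (Mir675), inside the spread of other genes at similar levels.

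Genes of similar level gave the frame for these ratios. Within 2-fold of the mean level of Mir483 there were 62 other tested genes, of which 47 passed, with log2 ratios between −4.33 and 3.50 and a median of −0.02. Of these, 14 had a ratio at or below that of Mir483. Within 2-fold of Mir335 there were 45 others, of which 42 passed, and 34 of them were as far from 0 as Mir335 or further. With this scaling Mir335 was thus among the steadier genes of its level, although it passed the threshold. Its own log2 ratio ran from 0.12 to 0.51 under other settings, for which this comparison was not made. Around Mir675 there were 87 others, of which 24 passed, and 12 had a ratio at or above its own.

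Markers of several cell types also differed between the libraries. The skeletal muscle list had no single direction. Its sum was led by Mir206, at 61540 CPM in replicate 2 and 11810 CPM in replicate 1, and the other 8 genes summed to 4160 CPM in replicate 2 and 4603 CPM in replicate 1. Mir206, Mir499 and Mir208b were higher in replicate 2, Mir486, Mir1a-1, Mir1a-2 and Mir133b were lower (exact binomial test as above), and both Mir133a loci did not pass. The liver gene Mir122 was 29.8 times as high, at 396 CPM in replicate 2 against 13.3 CPM in replicate 1. The 5 leukocyte genes summed to 3632 CPM in replicate 2 and 2285 CPM in replicate 1, with Mir150 and Mir155 higher and Mir142 and Mir223 lower in replicate 2. The endothelial gene Mir126a had 55386 CPM in replicate 2 and 104418 CPM in replicate 1. The 2 erythroid genes summed to 109 CPM in replicate 2 and 777 CPM in replicate 1. The 4 fibroblast and stroma genes, of which Mir199a-1 had no count, summed to 416 CPM in replicate 2 and 1654 CPM in replicate 1. Mir214 led this sum, and the other 3 genes summed to 18.1 CPM in replicate 2 and 33.8 CPM in replicate 1. Mir214 and Mir199b were lower in replicate 2, and Mir199a-2 did not pass. The sum of the smooth muscle and mural list differed less, at 56840 CPM in replicate 2 and 48845 CPM in replicate 1. It was led by Mir143, and Mir145a had 5286 CPM in replicate 2 and 2820 CPM in replicate 1. Both genes were higher in replicate 2. The 11 neural genes, with all 3 Mir124a loci, Mir9-1 and Mir9-2 at 0 in both libraries, summed to 1095 CPM in replicate 2 and 922 CPM in replicate 1. Of these, Mir128-1, Mir137 and Mir219a-2 were higher in replicate 2, Mir219a-1 was lower and Mir338 did not pass. Mir142b of the leukocyte list also had no count in either library. Reads that mapped to several places were left unassigned, which lowers genes that have copies. Counts of 0, and low counts at genes with several loci such as Mir1a and Mir133a, therefore need not mean low levels. The part of cell composition, depth or the share of unassigned reads in the differences of Mir483 and Mir335 was not tested.

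Each gene had neighbours in level that came from unrelated loci. By the distance of log2(CPM + 1) over the 2 libraries, Mirlet7c-2 (distance 0.13) and Mir146 (0.24) were nearest to Mir335, and Mir374b (0.34) and Mir378c (0.36) to Mir483. Mir3074-1 (0.13) and Mir103-2 (0.16) were nearest to Mir298, Mir3473g (0.12) and Mir672 (0.16) to Mir296, and Mir6944 (0.13) and Mir181b-1 (0.15) to Mir675. Mir374b had 71.0 CPM in replicate 2 and 96.3 CPM in replicate 1, the same direction as Mir483. Choosing genes by nearness in both libraries favours a shared direction. Over only 2 libraries such a distance describes similar levels and no more.

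Another large imprinted group, of 67 mouse microRNA genes, lies between Dlk1 and Dio3 on chromosome 12. It took 0.265% of counts in replicate 2 and 0.342% in replicate 1. Its highest members were Mir127 at 958 ± 15.1 CPM and Mir411 at 544 ± 227 CPM, beside 430 CPM for Mir335. Among its 46 tested genes 6 were higher in replicate 2, 16 were lower and 24 failed to pass, and the median log2 ratio was −0.46. Over all 380 genes tested, 30.3% were higher and 31.6% lower in replicate 2, with a median log2 ratio of 0.02. Whether the group differs from the table in this was not tested. Mir411 was lower in replicate 2 at a log2 ratio of −0.78, and Mir127 had 0.06 without passing (adjusted p = 0.165, exact binomial test). Of the 67, 37 were detected at 2 CPM or more in both libraries, against 14.7% of all 2202 genes. No count in either library was seen for 16 of the 67, against 1559 of all 2202.

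The strand of the reads set Mir675 apart from the other genes of these regions. On the strand opposite to the gene, Mir675 had 7 reads beside 8 on its own strand in replicate 2, and 26 beside 7 in replicate 1. This was 46.7% of its reads in replicate 2 (exact 95% interval 21.3 to 73.4) and 78.8% in replicate 1 (61.1 to 91.0). Mir335 had 1 opposite read beside 983 in replicate 2, or 0.102% (0.00257 to 0.565), and 0 beside 1791 in replicate 1, which allows a share of up to 0.168%. Mir483 had 0 opposite reads in both libraries, which allows up to 2.36% in replicate 2 and 0.602% in replicate 1. Mir298 also had 0, which on so few reads allows up to 16.7% in replicate 2 and 9.38% in replicate 1. Mir296 had 0 as well, which allows up to 25.0% in replicate 2 and 16.7% in replicate 1. The intervals of Mir675 lay above those of Mir335, Mir483 and Mir298 in both libraries, and above that of Mir296 in replicate 1. In replicate 2 the interval of Mir675 overlapped with that of Mir296, whose exact upper bound was 26.5%.

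**Figure D4:**
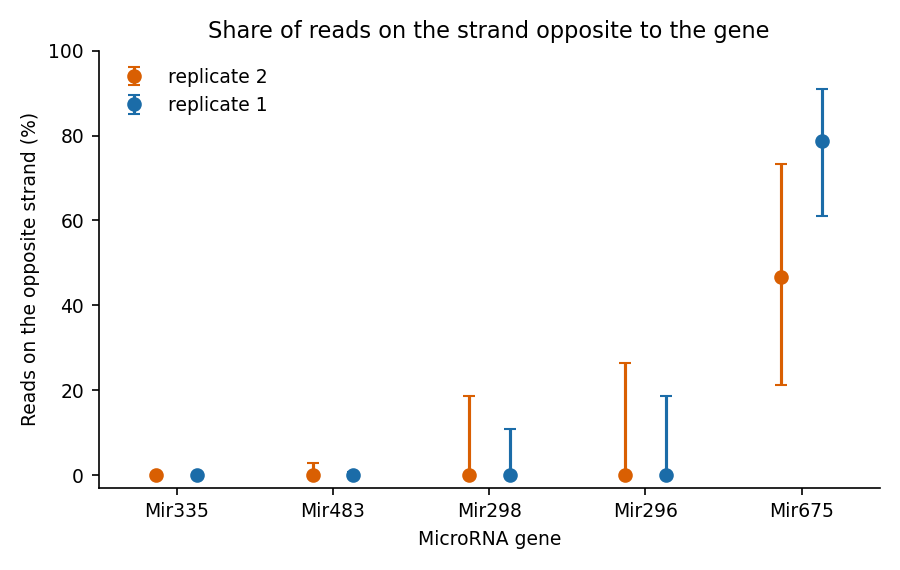
Share of reads on the strand opposite to the gene, in percent, with exact 95% intervals and replicate 2 left of replicate 1. Mir675 stands at 46.7% in replicate 2 and 78.8% in replicate 1, and the other genes are at 0% except Mir335 in replicate 2, with 0.102%.

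Reads mostly on the opposite strand were rare across the table unless another microRNA gene lay there. Of 404 genes with 10 or more reads over both strands and libraries, 357 had no opposite read and 27 had most of their reads on the opposite strand. Of these 27, 25 overlapped a microRNA gene on that strand. The exceptions were Mir675 and Mir5620, and Mir5620 had 2 opposite reads beside 5 on its strand in replicate 2, and 13 beside 2 in replicate 1. GENCODE M21 places no gene on the plus strand over Mir675, and the nearest there, the short RNA model Gm27483, is 141 bases away. Without strand, Mir675 had 15 counts in replicate 2 and 33 in replicate 1, and its log2 ratio was −0.022 instead of 0.94, so the direction of its difference depended on counting by strand. The longest stretch that the Mir675 precursor shares with its own reverse complement was 11 bases, beside 10 in Mir483, 9 in Mir335 and 6 in Mir298 and Mir296. Stretches longer than 11 bases occurred in 12.5% of all genes.

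All 5 precursors were predicted to fold more stably per base than the median gene. The minimum free energy computed with RNAfold was −0.667 kcal/mol per base for Mir675, −0.547 for Mir296, −0.521 for Mir298, −0.463 for Mir483 and −0.452 for Mir335. The median was −0.369 over all 2202 genes and −0.435 over the 324 detected in both libraries. Only 1.27% of all genes had a lower energy per base than Mir675, against 7.04% for Mir296, 10.1% for Mir298, 19.3% for Mir483 and 22.0% for Mir335. The share of G and C was 63.1% in Mir675, 63.3% in Mir296, 58.9% in Mir483, 53.7% in Mir298 and 42.9% in Mir335, beside a median of 50.8%. Mir335, the highest in level, was thus the richest in A and U and the least stable per base of the 5. Mir675 was the most stable, and it was the lowest in level only with counts on its strand.

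**Figure D5:**
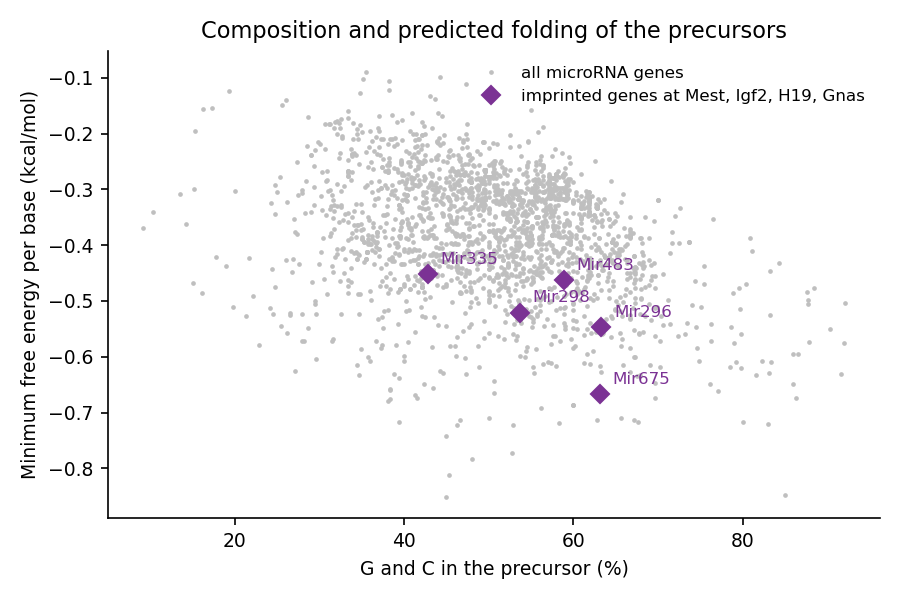
Minimum free energy per base in kcal/mol against the share of G and C in percent, for all 2202 precursors (grey) and the 5 imprinted genes (diamonds). Mir675 lies lowest of the 5 at −0.667 and Mir335 has the smallest share of G and C, at 42.9%.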

How the data were processed

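Small RNA from gastrocnemius was sequenced by microRNA-seq in 2 libraries. The deposited files hold raw counts of reads per microRNA gene on mm10 with GENCODE M21, per the readmes beside them. Which aligner, trimming and counting tool were used is not given in the sources used here. The 3 deposited count columns are unlabelled, and by their values they are reads without strand, on the gene's strand (used here) and on the opposite strand. Lines of reads in no gene were kept out of totals and tests. They made up 80.2% of reads in replicate 2 and 84.3% in replicate 1. All 2202 identifiers matched M21. Multimapping reads are outside the gene counts, which lowers genes that have copies.

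CPM were taken over assigned counts. The TMM factors of edgeR 4.0.16 (R 4.3.3), over genes with 10 or more counts, moved the log2 ratios by 0.0932 against plain totals. A single library a side leaves no residual degrees of freedom for edgeR's quasi-likelihood test. An exact two-sided binomial test was therefore used (scipy 1.17.1, Python 3.11.15). It was tried on simulated data with counting error only, so its behaviour under variation beyond counting error was not tested. ViennaRNA 2.7.2 gave folding energies. Other settings used DESeq2 1.42.0 size factors, plain totals, other filters, pseudocounts and strands, a thinned replicate 1 and a left-out library. TMM over all genes with a count and totals of all reads, and the order of levels without strand, were added after seeing the data. The genes, lists, tests and rules were chosen with earlier results of these data known. Named beside the 5 genes were the 2 genes nearest in level to each, microRNA genes within 100 kb, seed-sharing genes, the 2 highest Dlk1-Dio3 genes, the highest gene and cell type markers. Mir5620 was named after its values were seen. Other tools were numpy 2.4.6, pandas 2.3.3 and matplotlib 3.10.9.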

Additional observations from a re-analysis of the deposited data

How the results depend on the processing

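The log2 ratio of Mir483 stayed below 0 and past the threshold under all 11 alternatives, between −0.97 and −0.55. Those of Mir298 (0.14 to 0.62) and Mir296 (0.27 to 0.58) stayed above 0 without passing. Pseudocounts did not enter the test, so changing them could alter the ratios but no p-value. The settings with no filter beyond 1 count and with TMM over all genes with a count used the same scaling. Mir335 ranged between 0.12 and 0.51. With no filter beyond 1 count it was at 0.12 (adjusted p = 0.0836, exact binomial test). With TMM over all genes with a count it was at 0.12 (adjusted p = 0.0507, exact binomial test). In both settings 1 of the 5 genes was left past the threshold. Over all genes tested, 225 of 643 passed in the former setting and 234 of 380 in the latter. The factors of TMM moved with the genes entered, by 0.15 on the log2 scale here. Mir675 was at −0.022 with the counts without strand, where 3 of the 5 genes kept their place in the order of levels, Mir675 and Mir296 having changed places (added after seeing the data). The count of all genes past the threshold, 235 of 380 tested, ranged between 180 and 237, but the number of genes tested differed between settings. It was 180 of 296 without precursors that share 20 bases and 188 of 228 at 100 or more counts. With DESeq2 size factors it was 237 of 380. With totals of all reads 144 were higher and 88 lower in replicate 2, against 115 higher and 120 lower as reported.

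Levels in CPM moved with what the total held. With counts without strand, mean levels were 596 CPM for Mir335, 6.66 for Mir296, 10.8 for Mir298 and 9.99 for Mir675, and the summed share 0.0742%. Leaving out precursors that share 20 bases gave 601 CPM for Mir335, 6.76 for Mir296 and 10.9 for Mir298, and a share of 0.0740%. Totals without Mir378a gave 520 CPM for Mir335 and 9.41 for Mir298, and a share of 0.0641%. Leaving out either library leaves the other's own value: 403 to 456 CPM for Mir335, 58.9 to 112 for Mir483, 7.20 to 8.35 for Mir298, 4.05 to 5.57 for Mir296, 1.58 to 3.71 for Mir675 and 0.0528% to 0.0532% for the share. With 1 library left no ratio could be had. No paired analysis was possible because the labels give 1 group only.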
